A study of Homo sapiens with 54 samples.

Results

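The genes described here encode the subunits of the human proteasome and its assembly chaperone POMP, and were followed in HepG2 cells exposed to 7 compounds. A fixed list of 31 genes was matched by Ensembl gene ID to the deposited expression table, and 26 of the 31 had a row among its 20056. The other genes on the list, PSMA1, PSMA2, PSMA6, PSMC1 and PSMC6, are not analysed here. The 26 genes cover 4 of 7 listed members of the alpha ring, 6 of 6 of the beta ring, 4 of 6 ATPases of the base, 3 of 3 non-ATPase base subunits, 8 of 8 lid subunits and POMP.

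HepG2 is a line of human liver carcinoma cells that is much used to study effects of chemicals on the liver. Cultures received 35 µM 2-nitrofluorene, 10 mM NNK, 114 µM methapyrilene, 45 µM piperonyl butoxide, 95 µM clonidine, 420 µM nifedipine or 2.1 mM tolbutamide, and control cultures received the solvent DMSO at 0.5 percent. Each exposure lasted 24 h or 48 h. Every compound and time had 3 biological replicates, and every time had 6 DMSO arrays from 2 solvent exposures, which gave 54 Affymetrix arrays in all. Doses differed between compounds, with 1 dose per compound, so differences between compounds are differences between these exposures. Values are RMA log2 expression values, and because probe sets differ in sensitivity, levels are compared between samples and not between genes.

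The proteasome degrades proteins that carry ubiquitin chains. Its core particle is a barrel of stacked rings, in which the outer alpha rings gate the entry and the inner beta rings hold the proteolytic sites. The regulatory particle caps the barrel: its base carries a ring of ATPases that unfold and feed in the substrate, and its lid carries the enzyme that removes ubiquitin. Cells are known to raise transcription of proteasome genes together when proteasome activity is inhibited, a response that runs through the transcription factor NFE2L1 and antioxidant response elements in the promoters.

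Under piperonyl butoxide, the calls of 5 genes held in each of 54 fits that left out a single array, and the RefSeq promoters of these 5 are shown because the largest changes of the set lie among them. Each window runs from 250 bases before to 50 bases after a RefSeq transcript start in GRCh38.p14. It is printed 5′ to 3′ in the direction of the gene. Capitals mark a match on either strand to TGACNNNGC, the core of the antioxidant response element, or to CCAAT. For PSMD2 the window at its annotated gene start is shown. The genes are PSMC2 (ENSG00000161057, chr7:103347524-103369395), PSMC4 (ENSG00000013275, chr19:39971165-39981764), PSMD2 (ENSG00000175166, chr3:184299241-184309050), PSMD8 (ENSG00000099341, chr19:38374571-38383824) and PSMD12 (ENSG00000197170, chr17:67337916-67366577).
PSMC2, chr7:103347393-103347692, plus strand: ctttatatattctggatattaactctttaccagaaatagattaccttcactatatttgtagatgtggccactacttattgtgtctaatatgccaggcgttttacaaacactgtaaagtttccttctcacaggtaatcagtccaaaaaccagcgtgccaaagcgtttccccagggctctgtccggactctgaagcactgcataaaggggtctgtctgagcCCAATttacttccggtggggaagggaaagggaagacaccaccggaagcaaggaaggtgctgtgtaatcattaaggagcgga
PSMC4, chr19:39970915-39971214, plus strand: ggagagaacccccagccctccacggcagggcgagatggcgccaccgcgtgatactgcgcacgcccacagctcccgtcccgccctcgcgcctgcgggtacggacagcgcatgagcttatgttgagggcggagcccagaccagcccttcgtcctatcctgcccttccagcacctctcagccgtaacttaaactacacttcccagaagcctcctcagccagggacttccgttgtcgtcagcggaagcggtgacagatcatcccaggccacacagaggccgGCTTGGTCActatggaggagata
PSMD2, chr3:184298991-184299290, plus strand: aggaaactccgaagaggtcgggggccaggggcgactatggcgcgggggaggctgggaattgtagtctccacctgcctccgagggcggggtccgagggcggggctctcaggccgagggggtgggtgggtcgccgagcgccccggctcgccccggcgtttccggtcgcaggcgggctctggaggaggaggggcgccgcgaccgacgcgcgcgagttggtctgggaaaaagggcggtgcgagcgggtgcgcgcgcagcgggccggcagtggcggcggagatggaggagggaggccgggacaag
PSMD8, chr19:38374321-38374620, plus strand: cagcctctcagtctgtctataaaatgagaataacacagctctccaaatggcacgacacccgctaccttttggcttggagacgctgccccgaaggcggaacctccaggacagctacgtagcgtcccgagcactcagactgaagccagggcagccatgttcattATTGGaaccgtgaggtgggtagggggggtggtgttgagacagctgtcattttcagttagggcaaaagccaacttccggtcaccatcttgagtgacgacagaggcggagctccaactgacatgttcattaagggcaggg
PSMD12, chr17:67366528-67366827, minus strand: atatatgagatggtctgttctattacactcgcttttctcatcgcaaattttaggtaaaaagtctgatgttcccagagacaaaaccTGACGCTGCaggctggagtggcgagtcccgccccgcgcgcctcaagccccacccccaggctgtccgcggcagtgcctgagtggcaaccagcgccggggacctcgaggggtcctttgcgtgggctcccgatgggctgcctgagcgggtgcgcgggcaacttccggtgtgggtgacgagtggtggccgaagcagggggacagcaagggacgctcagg
PSMD12 held TGACGCTGC at position -165 relative to the start, and PSMC4 held a reverse-strand match from position 28 after it. PSMC2 and PSMD8 held a CCAAT match, PSMD2 held neither motif, and in these 5 windows the 2 motifs did not overlap. Of the 26 genes, 21 had a promoter in the table, and 6 of these (28.6 percent) held TGACNNNGC, namely PSMA4, PSMC4, PSMC5, PSMD1, PSMD3 and PSMD12. Among all genes with a promoter there, 16.1 percent held it. CCAAT was present in 13 of the 21 genes (61.9 percent) and in 39.7 percent of all genes. A match describes letters in the window and is not evidence of binding.

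The arrays did not all have the same spread of values, which bears on every 24 h comparison and on piperonyl butoxide at 48 h. Through a variance shared by all groups in the fit, it also bears on the p-values of the other comparisons. Each array was regressed on the average of the 54, and 50 arrays had slopes from 0.965 to 1.04. The low-spread arrays were piperonyl butoxide 48 h replicate 1 (slope 0.678), piperonyl butoxide 24 h replicate 2 (0.858), NNK 24 h replicate 2 (0.798) and DMSO 24 h exposure 2 replicate 2 (0.911). Most of the 26 proteasome genes were low on the 3 compound arrays among these 4. The median difference of the 26 from the matched DMSO arrays was -0.49 on piperonyl butoxide 48 h replicate 1, -0.34 on piperonyl butoxide 24 h replicate 2 and -0.57 on NNK 24 h replicate 2. In the same order, 7, 5 and 2 of the 26 genes lay above matched DMSO. PSMD4 was above it on each of these arrays, at 10.29, 9.52 and 9.64. On the DMSO array, set against the mean of both DMSO arrays of its number, it was -0.11. That mean includes the array itself, which shrinks the difference, so this value is not on the scale of the compound arrays. The other piperonyl butoxide arrays had medians of -0.22 and 0.03 at 24 h and of 0.18 and 0.20 at 48 h. Over the 35 arrays of usual spread from the other 6 compounds the medians ran from -0.27 to 0.19. Each result is therefore given with all 54 arrays and, where it differs, without the 4 low-spread arrays. The piperonyl butoxide arrays that remain had slopes of 0.980 and 0.992 at 24 h and of 0.966 and 0.966 at 48 h. The lowest slopes of the remaining DMSO arrays were 1.01 at 24 h and 0.998 at 48 h. A difference in spread between these groups therefore stays without the 4 arrays. What lowered the spread of any of these arrays was not tested.

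**Figure D1:**
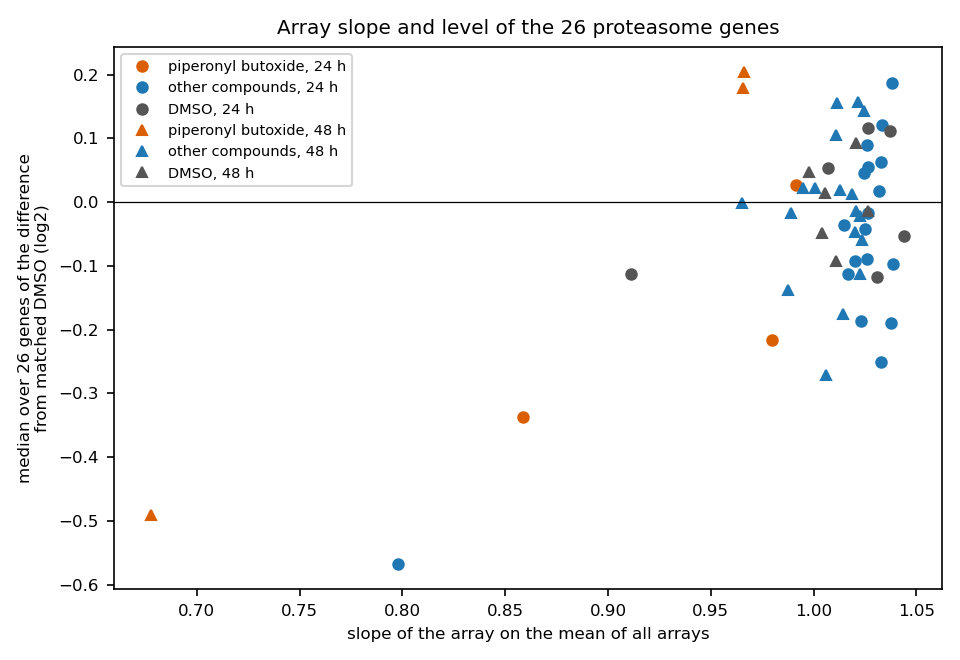
Median over the 26 proteasome genes of the log2 difference from the matched DMSO arrays (y axis) against the slope of the array on the average of the 54 (x axis), with 1 point per array, circles for 24 h and triangles for 48 h. A DMSO array is set against the mean of both DMSO arrays of its number, which includes the array itself and shrinks the difference. The 3 compound arrays with slopes of 0.678, 0.798 and 0.858 have the lowest medians, -0.49, -0.57 and -0.34.

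Across the 14 comparisons of a compound with DMSO of the same time, most calls among the proteasome genes came under piperonyl butoxide, as they did among all genes. A gene was called when its adjusted p was under 0.05 in limma after Benjamini-Hochberg adjustment over all 20056 rows. Piperonyl butoxide had 8 called proteasome genes at 24 h and 11 at 48 h, while the other 6 compounds together had 4 calls in 12 comparisons, or 9 without the low-spread arrays. Of all genes 26.0 and 58.7 percent were called under piperonyl butoxide, against 0 to 8.18 percent in the 12 other comparisons, so the difference between compounds is that of the whole table. No log2 change under those 6 compounds was larger in size than 0.55. The comparisons of a time share its 6 DMSO arrays, so they are not independent of each other.

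**Figure D2:**
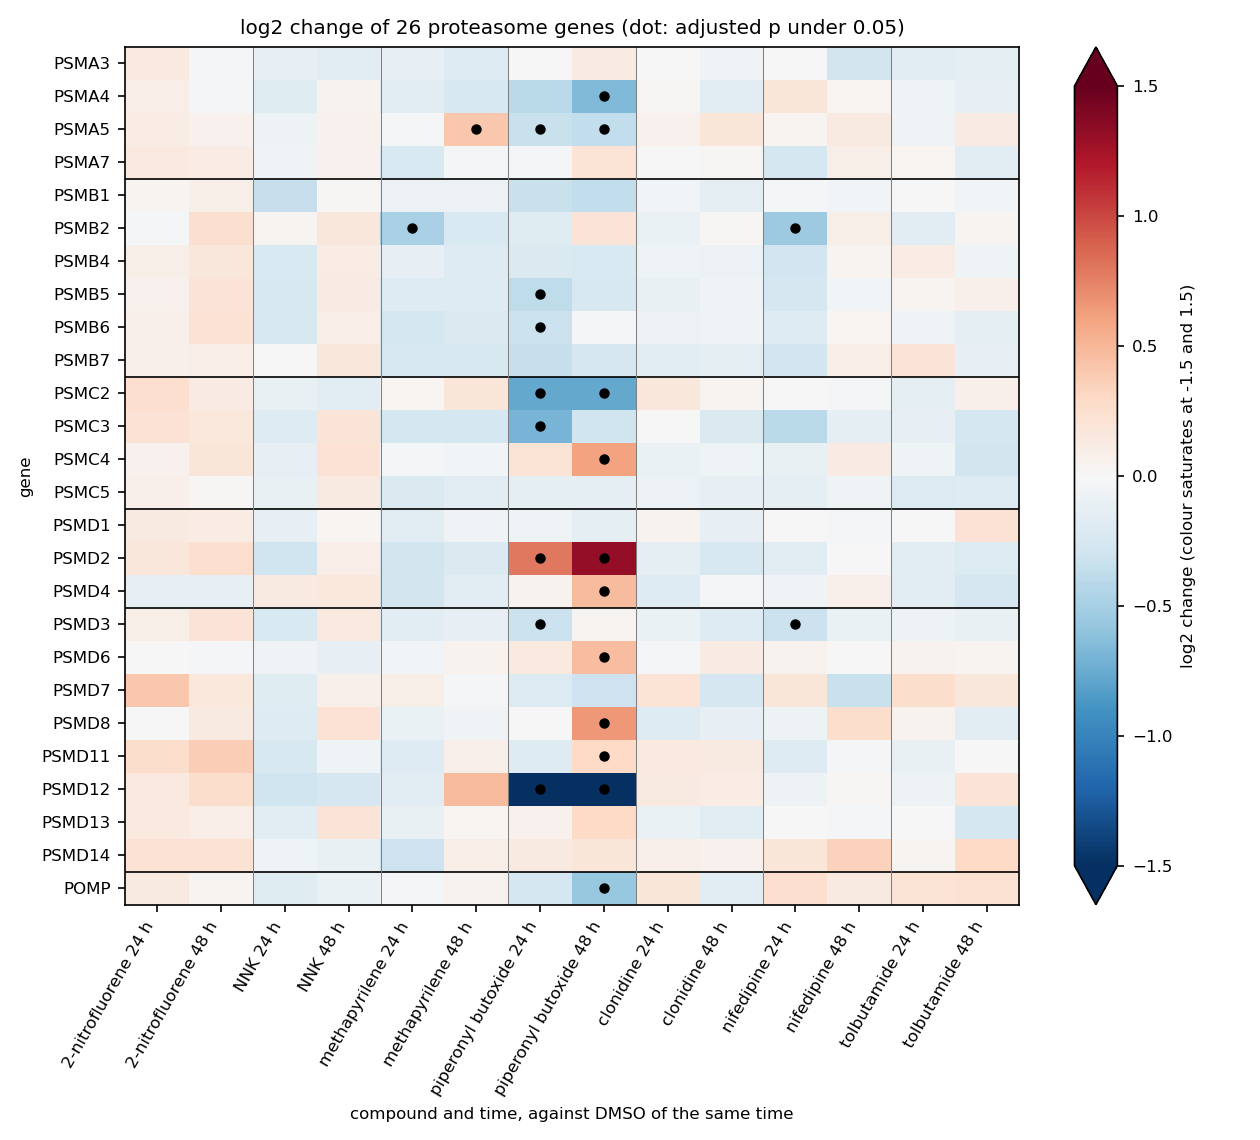
Fitted log2 change of each of the 26 proteasome genes (rows, in the order alpha ring, beta ring, ATPases, other base subunits, lid, POMP, separated by lines) for each compound and time against DMSO of the same time (columns), all 54 arrays. Dots mark adjusted p under 0.05, and colours saturate at the ends of the scale. The largest values are those of PSMD12 (-2.07 and -2.79) and PSMD2 (0.79 and 1.32) under piperonyl butoxide at 24 h and 48 h.

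Piperonyl butoxide, which is added to insecticides to block their breakdown by cytochrome P450 enzymes, gave called rises and called falls among the proteasome genes at both times. PSMD12, a scaffold subunit of the lid, fell 4.20-fold at 24 h and 6.93-fold at 48 h (4.13-fold and 4.25-fold without the low-spread arrays). PSMD2, the large base subunit that receives ubiquitin shuttle proteins, rose 1.73-fold at 24 h and 2.50-fold at 48 h. PSMC2, an ATPase of the base, fell 1.70-fold at both times. At 24 h 1 gene rose and 7 fell, which is 30.8 percent of the 26. Among all genes the 26.0 percent called split into 10.9 percent that rose and 15.1 percent that fell. At 48 h 6 rose and 5 fell, which is 42.3 percent of the 26, against 58.7 percent of all genes, with 38.1 percent rising and 20.6 percent falling. The share of proteasome genes called was therefore near that of all genes at 24 h and below it at 48 h, and without the low-spread arrays the order turned at both times. In bulk RNA of a culture, a change in some of its cells and a smaller change in all of them cannot be told apart.

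Without the low-spread arrays, 1 proteasome gene rose and 6 fell at 24 h, and 9 rose and 3 fell at 48 h. These are 26.9 and 46.2 percent of the 26 genes, against 31.6 and 38.5 percent of all genes. Of all genes 14.7 percent rose and 16.9 percent fell at 24 h, and 19.6 percent rose and 18.9 percent fell at 48 h. Most of the 26 genes measured well above the array medians, which ran from 5.70 to 6.21, with the highest on piperonyl butoxide 48 h replicate 1. A low slope lowers such bright genes relative to dim ones, so the set and all genes need not shift alike on a low-spread array. Whether other genes of similar level moved as the set did was not tested. The median log2 change over the 26 genes was -0.20 at 24 h (0.10 over all genes) and -0.09 at 48 h (0.21 over all genes). Without the 4 arrays the medians were -0.10 at 24 h (0.06 over all genes) and 0.11 at 48 h (0.07 over all genes). The sign of the 48 h median thus depended on these arrays. After cyclic loess scaling between arrays it was 0.31, with 15 rises and 3 falls. At 24 h the count was 3 without the replicate block (PSMD12, PSMC2 and PSMD2) and 3 without piperonyl butoxide 24 h replicate 2. In fits of only the arrays compared it was 4 at each time, PSMD12, PSMC2 and PSMD2 with PSMC3 at 24 h and with PSMC4 at 48 h.

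**Figure D3:**
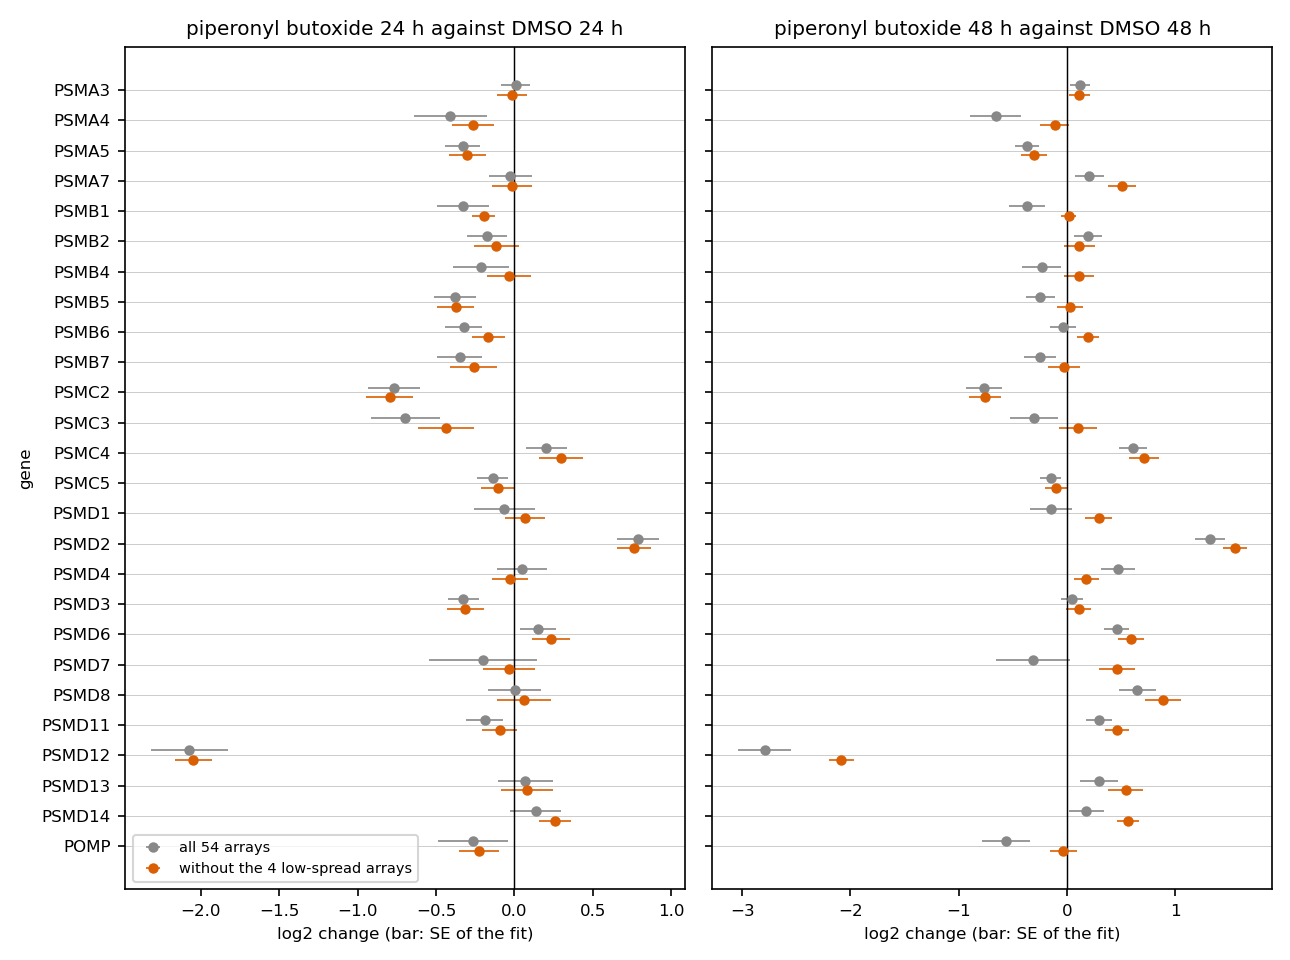
Log2 change under piperonyl butoxide against DMSO at 24 h (left) and 48 h (right) for each of the 26 proteasome genes, with bars of 1 standard error of the fit, for all 54 arrays (grey) and without the 4 low-spread arrays (orange). PSMD12 lies near -2 at both times without these arrays (-2.05 and -2.09), and PSMD2 lies at 0.76 and 1.55. At 48 h the orange points of most lid genes lie to the right of 0.

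Of the alpha ring genes with a row, PSMA5 moved at both times in limma and PSMA4 at 48 h. PSMA5 measured 5.44, 5.26 and 5.62 under piperonyl butoxide at 24 h, against a lowest, median and highest DMSO value of 5.48, 5.76 and 6.05. It measured 5.33, 5.68 and 5.55 under piperonyl butoxide at 48 h, against 5.64, 5.91 and 6.18 in DMSO. At each time the highest piperonyl butoxide array lay just above the lowest DMSO array. At 24 h PSMA5 fell by 0.33 (SE 0.11, adjusted p = 0.0266) and at 48 h it fell by 0.37 (SE 0.11, adjusted p = 0.00705). Without the 4 arrays it fell by 0.30 at both times (adjusted p = 0.0499 and 0.0371). The 24 h call was lost without the replicate block (adjusted p = 0.057) and in 4 of the 54 single-array omissions (largest adjusted p = 0.164), and the 48 h call without piperonyl butoxide 48 h replicate 1 alone (adjusted p = 0.0799). PSMA4 measured 9.99, 11.51 and 11.50 under piperonyl butoxide at 48 h, against 11.42, 11.70 and 11.80 in DMSO. One low-spread array carried this fall, since the change was -0.66 (SE 0.23, adjusted p = 0.0172) with all arrays and -0.11 (adjusted p = 0.756) without replicate 1. PSMA7 moved the other way when the low-spread arrays were left out, with a rise of 0.51 at 48 h (SE 0.13, adjusted p = 0.00137) against 0.21 (adjusted p = 0.184) with all arrays. PSMA3 changed by 0.01 at 24 h and 0.12 at 48 h and was not called.

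The beta ring holds the proteolytic sites: PSMB5 carries the chymotrypsin-like, PSMB6 the caspase-like and PSMB7 the trypsin-like activity. With all arrays all 6 beta genes had a fitted change below 0 at 24 h, between -0.38 and -0.18. Of them 2, PSMB5 and PSMB6, passed the test. Low-spread replicate 2 was the lowest piperonyl butoxide array of that time for each of the 6. For PSMB4 it measured 11.16, while the other piperonyl butoxide arrays, at 11.97 and 11.90, lay within the DMSO range of 11.62 to 12.31. PSMB5 measured 12.11, 11.89 and 12.04 under piperonyl butoxide, against a lowest, median and highest DMSO value of 12.16, 12.38 and 12.71. The groups did not overlap, and PSMB5 fell by 0.38 (SE 0.13, adjusted p = 0.0306). The call held without the 4 arrays (adjusted p = 0.0151) but not without the replicate block (adjusted p = 0.0517), after centring (adjusted p = 0.0501) or in 4 single-array omissions (largest adjusted p = 0.113). After cyclic loess the change of PSMB5 was -0.11 (adjusted p = 0.533). PSMB6 measured 11.07, 10.45 and 10.66 under piperonyl butoxide, against 10.61, 11.10 and 11.50 in DMSO, with overlapping groups. PSMB6 fell by 0.32 (SE 0.12, adjusted p = 0.0392), and without the low-spread arrays its change was -0.17 (adjusted p = 0.233). It was -0.08 (adjusted p = 0.692) after cyclic loess, and the call was also lost without the block (adjusted p = 0.118). In the setting without the low-spread arrays PSMB1, a non-catalytic beta subunit, was called instead, with a fall of 0.20 (adjusted p = 0.0349). PSMB7 changed by -0.35 (SE 0.15, adjusted p = 0.074) and was not called. At 48 h 0 of 6 beta genes were called, with changes of -0.24 for PSMB5, -0.03 for PSMB6 and -0.25 for PSMB7. After cyclic loess PSMB5 and PSMB6 were instead called as higher at 48 h, by 0.30 (adjusted p = 0.0341) and 0.46 (adjusted p = 0.00146), so no direction is given for them at that time.

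The 4 ATPases of the base that had a row did not move together. PSMC2 measured 5.95, 5.65 and 6.23 under piperonyl butoxide at 24 h, against a lowest, median and highest DMSO value of 5.88, 6.83 and 7.07. The lowest DMSO value came from the low-spread DMSO array, and the other 5 lay between 6.68 and 7.07, above all piperonyl butoxide arrays. At 48 h PSMC2 measured 5.93, 6.05 and 5.88 under piperonyl butoxide, against 6.53, 6.74 and 6.96 in DMSO, with no overlap. The change of PSMC2 was -0.77 at both times (SE 0.17, adjusted p = 0.000467 at 24 h and 0.000311 at 48 h). Across the 54 single-array omissions the change stayed between -0.91 and -0.68 at 24 h and between -0.82 and -0.72 at 48 h.

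PSMC4, another ATPase of the base, was higher at 48 h. It measured 9.98, 10.20 and 10.34 under piperonyl butoxide at 48 h, against a lowest, median and highest DMSO value of 8.97, 9.64 and 9.94. Every piperonyl butoxide array lay above every DMSO array. PSMC4 rose by 0.61 (SE 0.13, adjusted p = 0.000241), and by 0.71 (SE 0.14, adjusted p = 6e-05) without the 4 arrays. At 24 h its change was 0.20 (adjusted p = 0.258). PSMC3 measured 8.63, 7.23 and 8.23 under piperonyl butoxide at 24 h, against 8.37, 8.70 and 9.20 in DMSO, and its lowest value came from low-spread replicate 2. PSMC3 fell by 0.70 (SE 0.22, adjusted p = 0.0153) with all arrays, and the change was -0.44 (adjusted p = 0.0586) without the 4 arrays. The call was also lost without the replicate block (adjusted p = 0.0662). PSMC5 changed by -0.14 and -0.15 at 24 h and 48 h and was not called.

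Among the other base subunits, PSMD2 had the largest rise of the whole set. It measured 10.64, 10.38 and 10.42 under piperonyl butoxide at 24 h, against a lowest, median and highest DMSO value of 9.45, 9.68 and 9.96. At 48 h it measured 10.23, 10.76 and 11.03 under piperonyl butoxide, against 9.15, 9.31 and 9.65 in DMSO. All 3 piperonyl butoxide arrays lay above all 6 DMSO arrays at both times, and the low-spread array was the lowest of the 3 at 48 h. PSMD2 averaged 10.48 ± 0.14 (SD, n = 3) under piperonyl butoxide and 9.69 ± 0.18 (SD, n = 6) in DMSO at 24 h. At 48 h the means were 10.67 ± 0.40 (SD, n = 3) under piperonyl butoxide and 9.35 ± 0.17 (SD, n = 6) in DMSO. The rise was 0.79 (SE 0.14, adjusted p = 1.69e-05) at 24 h and 1.32 (SE 0.14, adjusted p = 3.03e-10) at 48 h. Without the low-spread arrays the rises were 0.76 and 1.55.

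PSMD4, the base subunit that binds ubiquitin chains, showed a rise that rested on 1 array. It measured 10.29, 8.98 and 9.19 under piperonyl butoxide at 48 h, against a lowest, median and highest DMSO value of 8.77, 9.07 and 9.19. The value of 10.29 came from low-spread replicate 1. The change was 0.47 (SE 0.16, adjusted p = 0.013) with all arrays and 0.18 (adjusted p = 0.464) without that array. PSMD1, the other large base subunit, changed by -0.06 at 24 h and -0.15 at 48 h and was not called.

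The lid held the largest fall of the set, and 3 of its 8 genes rose at 48 h. PSMD12 measured 6.88, 6.59 and 6.79 under piperonyl butoxide at 24 h, against a lowest, median and highest DMSO value of 8.41, 8.90 and 9.03. At 48 h it measured 4.62, 7.05 and 6.24 under piperonyl butoxide, against 8.26, 8.88 and 8.96 in DMSO. The groups were far apart at both times, and the lowest value, 4.62, came from the low-spread array. PSMD12 averaged 6.75 ± 0.15 (SD, n = 3) under piperonyl butoxide and 8.83 ± 0.24 (SD, n = 6) in DMSO at 24 h. At 48 h the means were 5.97 ± 1.24 (SD, n = 3) under piperonyl butoxide and 8.77 ± 0.26 (SD, n = 6) in DMSO. The change was -2.07 (SE 0.25, adjusted p = 1.47e-08) at 24 h and -2.79 (SE 0.25, adjusted p = 6.64e-12) at 48 h. Without the 4 arrays it was -2.05 and -2.09 (SE 0.12 each). In the 12 groups of the other 6 compounds PSMD12 had group means between 8.52 and 9.24.

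PSMD8, a lid subunit whose yeast counterpart joins last in lid assembly, was higher at 48 h. It measured 10.74, 11.01 and 11.32 under piperonyl butoxide at 48 h, against a lowest, median and highest DMSO value of 9.73, 10.48 and 10.56. The groups did not overlap, and PSMD8 rose by 0.65 (SE 0.17, adjusted p = 0.00172), or by 0.89 without the 4 arrays. At 24 h its change was 0.00 (adjusted p = 0.996). PSMD6 rose by 0.46 at 48 h (SE 0.12, adjusted p = 0.00128), with 5.20, 5.78 and 5.23 under piperonyl butoxide and 4.61, 4.98 and 5.12 as lowest, median and highest in DMSO. PSMD6 lay below the array median on every piperonyl butoxide and DMSO array at 48 h, so it is a dim gene here. A low slope raises dim genes relative to bright ones, and the part of the slope in this rise was not tested. The call of PSMD6 was lost without replicate 2 (adjusted p = 0.0631) and after cyclic loess, where the change was 0.07 (adjusted p = 0.768). PSMD11 rose by 0.30 at 48 h (SE 0.12, adjusted p = 0.0296), with 7.65, 7.88 and 8.03 under piperonyl butoxide and 7.00, 7.68 and 7.82 in DMSO, so the groups overlapped. Its call was lost without piperonyl butoxide 48 h replicate 3 (largest adjusted p = 0.459) or DMSO 48 h exposure 1 replicate 3, without the block (adjusted p = 0.102) and after centring, where the change was 0.17 (adjusted p = 0.366).

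PSMD14, the deubiquitinase of the lid, was split by the low-spread array. It measured 10.38, 11.35 and 11.38 under piperonyl butoxide at 48 h, against a lowest, median and highest DMSO value of 10.63, 10.88 and 10.99. The low-spread array lay below all DMSO arrays and the other 2 above all of them. With all arrays the change was 0.18 (SE 0.16, adjusted p = 0.332), and without the 4 arrays PSMD14 rose by 0.56 (SE 0.10, adjusted p = 2.31e-05). In that setting PSMD7 and PSMD13 also rose at 48 h, by 0.46 (adjusted p = 0.0235) and 0.54 (adjusted p = 0.0078). In all, 3 of 8 lid genes rose and 1 fell at 48 h with all arrays, and 6 rose and 1 fell without the 4. PSMD3, the remaining lid gene, fell at 24 h by 0.32 (SE 0.10, adjusted p = 0.0143) with overlapping groups, and at 48 h its change was 0.05. The 24 h call was lost without piperonyl butoxide 24 h replicate 2 or 3 (largest adjusted p = 0.0844) and without the block (adjusted p = 0.261). After cyclic loess the change was -0.11 (adjusted p = 0.663).

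POMP, the chaperone that helps the beta rings assemble and close the core particle, was called lower at 48 h through 1 array. It measured 7.33, 8.86 and 8.74 under piperonyl butoxide, against a lowest, median and highest DMSO value of 8.76, 8.82 and 9.05. The value of 7.33 came from low-spread replicate 1. The change was -0.57 (SE 0.22, adjusted p = 0.0291) with all arrays and -0.03 (adjusted p = 0.929) without that array. The call was also lost without DMSO 48 h exposure 1 replicate 2 or exposure 2 replicate 1, and after cyclic loess the change was -0.18 (adjusted p = 0.27). At 24 h the change was -0.26 (adjusted p = 0.386).

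**Figure D4:**
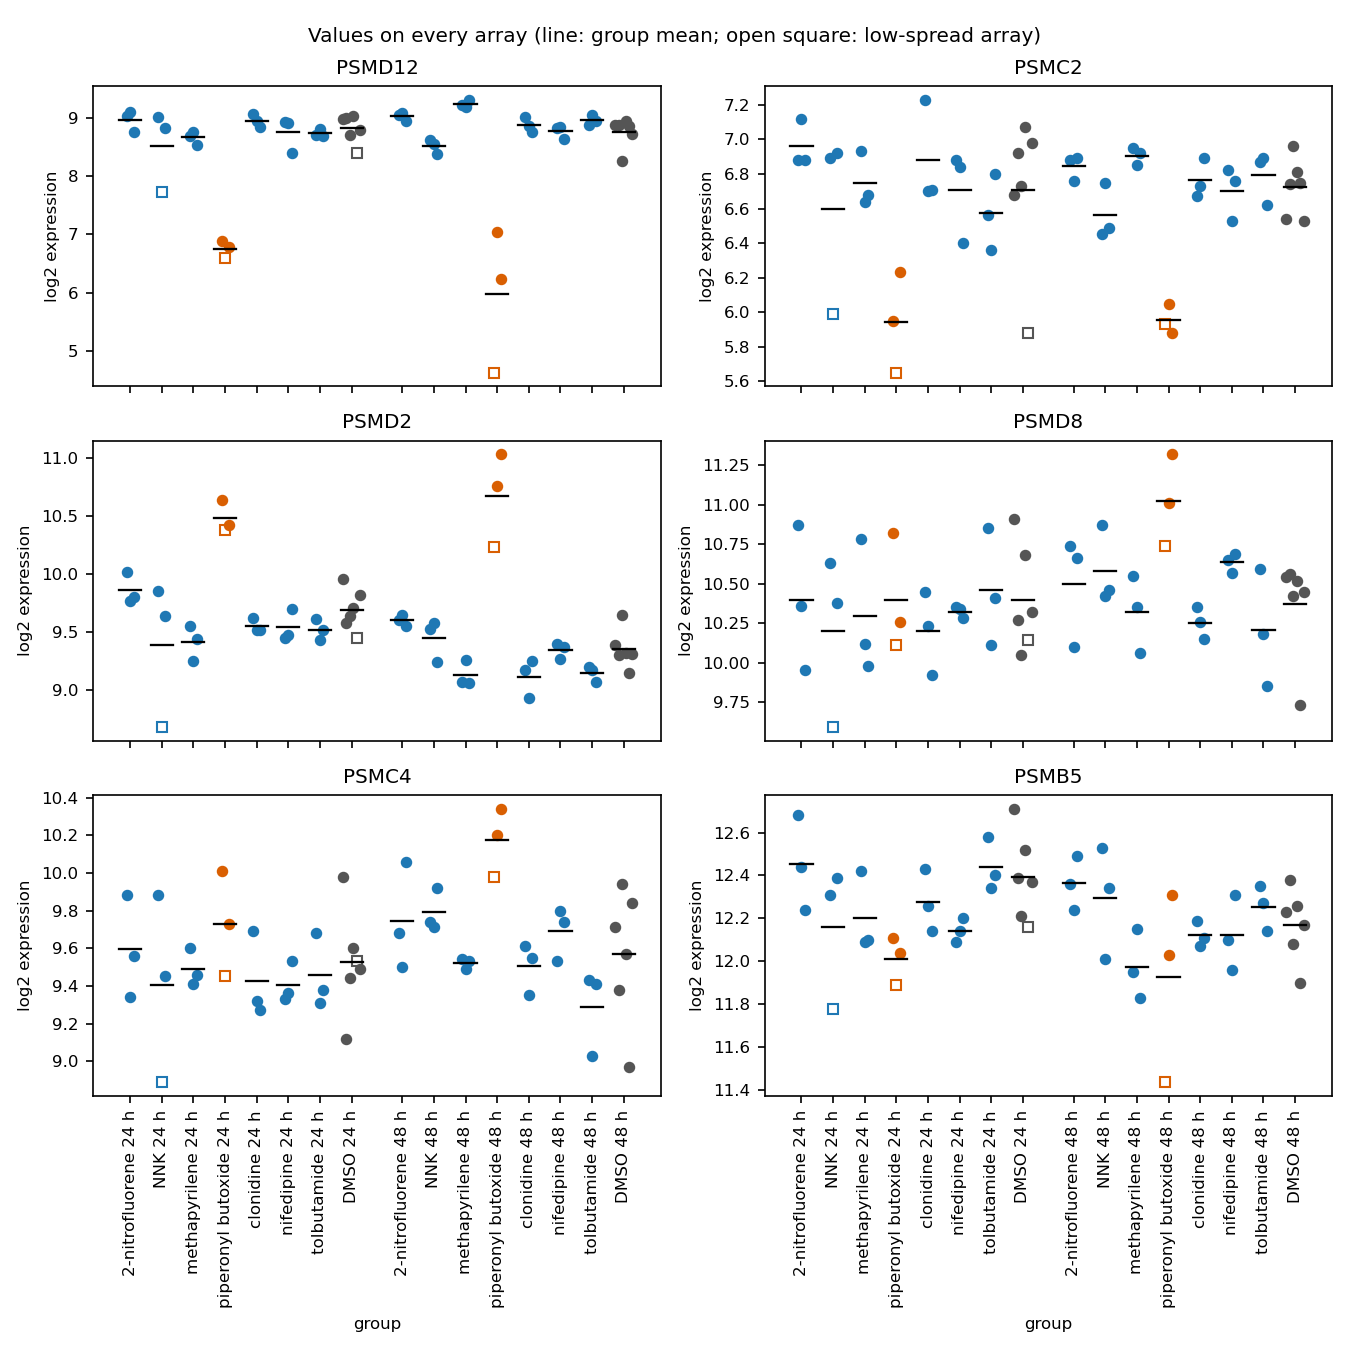
Log2 expression of PSMD12, PSMC2, PSMD2, PSMD8, PSMC4 and PSMB5 on each of the 54 arrays, by group, with the 24 h groups left of the 48 h groups and DMSO last within each time. Horizontal lines are group means, piperonyl butoxide is orange, and open squares are the low-spread arrays. PSMD12 lies at 4.62 to 7.05 under piperonyl butoxide, and PSMD2 lies at 10.23 to 11.03.

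How far the ranges of the groups separated was also compared with the rest of the table. Under piperonyl butoxide 3 of 26 proteasome genes (11.5 percent) had no overlap with DMSO at 24 h and 6 (23.1 percent) at 48 h. Over all genes the shares were 16.7 and 27.8 percent, above those of the proteasome genes. Without the low-spread arrays 6 genes (23.1 percent) at 24 h and 9 (34.6 percent) at 48 h had no overlap, against 35.4 and 38.3 percent of all genes, with fewer arrays to separate.

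Whether the changes under piperonyl butoxide differed from those under the other compounds was tested directly, as piperonyl butoxide minus the mean of the other 6 compounds at the same time. PSMD12 was lower, with a difference of -2.02 (SE 0.22, adjusted p = 1.3e-09) at 24 h and -2.93 (SE 0.22, adjusted p = 4.97e-14) at 48 h. PSMD2 was higher, with a difference of 0.93 (SE 0.12, adjusted p = 6.17e-08) at 24 h and 1.37 (SE 0.12, adjusted p = 3.5e-12) at 48 h. Without the low-spread arrays the differences at 24 h and 48 h were -1.97 and -2.22 for PSMD12 and 0.88 and 1.61 for PSMD2. PSMC2 was lower at both times, with differences of -0.80 (adjusted p = 4.05e-05) and -0.81 (adjusted p = 2.31e-05). Together 1 proteasome gene was higher and 4 were lower at 24 h, where 33.6 percent of all genes were called, and 6 were higher and 7 lower at 48 h, where 66.3 percent were. PSMC4 and PSMD8 were among those higher at 48 h, by 0.59 and 0.60. Without the low-spread arrays 10 were higher and 3 lower at 48 h, with 40.9 percent of all genes called, and 1 was higher and 4 lower at 24 h, with 33.4 percent called.

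The 48 h and 24 h changes under piperonyl butoxide were also compared with each other. None of the 26 genes differed between its 48 h and its 24 h change in limma (smallest adjusted p = 0.161). The comparison called 1.07 percent of all genes. An unadjusted p under 0.05 was reached by 6 of the 26, and the share of all genes at that p is not given. Without the 4 arrays, where 1.95 percent of all genes were called, PSMD2 had a change 0.79 higher at 48 h (SE 0.15, adjusted p = 0.00241) and was called, and PSMD8 was not, at 0.83 higher (SE 0.24, adjusted p = 0.0611). In that setting 24 of 26 genes (92.3 percent) had a higher change at 48 h, as did 50.6 percent of all genes. The median was 0.27 over the 26 genes and 0.00 over all genes. With all arrays 17 of 26 genes (65.4 percent) had a higher change at 48 h, as did 64.0 percent of all genes. The median was then 0.12 over the 26 genes and 0.10 over all genes. The difference between the set and all genes thus depended on the low-spread arrays. PSMD12 differed by -0.72 (SE 0.35, adjusted p = 0.366) with all arrays and by -0.04 without the 4.

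Methapyrilene, an antihistamine, gave 1 call at each time. PSMB2, a non-catalytic beta subunit, measured 7.92, 7.21 and 7.58 under methapyrilene at 24 h, against a lowest, median and highest DMSO value of 7.77, 7.94 and 8.58. The highest methapyrilene array lay within the DMSO range. PSMB2 fell by 0.49 (SE 0.13, adjusted p = 0.038), as 1 of 26 genes where 1.53 percent of all genes were called. Without the 4 low-spread arrays, where 3.85 percent of all genes were called, its adjusted p was 0.0554. It was 0.157 without the block, 0.511 with only the arrays compared and 0.0808 after cyclic loess, and the call was lost when any of the 3 methapyrilene arrays or 1 of 2 DMSO arrays (24 h exposure 1 replicate 1 and exposure 2 replicate 2) was left out. PSMD14 fell by 0.35 (SE 0.09, adjusted p = 0.0159) in the limma fit without the 4 low-spread arrays, and by 0.32 (adjusted p = 0.0376) after cyclic loess. At 24 h 24 of 26 genes had a fitted change below 0 in both settings. The median was -0.16 (-0.03 over all genes) with all arrays and -0.19 (-0.002 over all genes) without the 4. In limma 4 of the 26 had an unadjusted p under 0.05 with all arrays and 13 without the 4. The share of all genes at that unadjusted p is not given. The 1 call was PSMB2 with all arrays and PSMD14 without the 4. At 48 h PSMA5 measured 6.07, 6.14 and 6.65 under methapyrilene, against 5.64, 5.91 and 6.18 in DMSO, and rose by 0.40 (SE 0.11, adjusted p = 0.0274). It was 1 of 26 genes where 5.00 percent of all genes were called, and the call was lost without the replicate block (adjusted p = 0.082), after centring (adjusted p = 0.0876), after cyclic loess (adjusted p = 0.131) and in 5 of the 54 single-array omissions (largest adjusted p = 0.448).

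PSMD12 moved upwards under methapyrilene when the low-spread arrays were left out. It measured 9.22, 9.19 and 9.32 under methapyrilene at 48 h, against a lowest, median and highest DMSO value of 8.26, 8.88 and 8.96, and the groups did not overlap. The change was 0.48 in both settings, with SE 0.25 (adjusted p = 0.404) on all arrays and SE 0.10 (adjusted p = 0.000723) without the 4, where 12.4 percent of all genes were called. The estimate was the same because none of the 4 belongs to these groups, while the shared estimate of the spread was smaller. Its 48 h change was then 0.74 higher than its 24 h change (SE 0.14, adjusted p = 0.00824), in a comparison that called 0.558 percent of all genes.

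Nifedipine, a calcium channel blocker, gave 2 calls at 24 h and 0 at 48 h. PSMB2 measured 7.44, 7.52 and 7.58 under nifedipine at 24 h, against a lowest, median and highest DMSO value of 7.77, 7.94 and 8.58, with no overlap. PSMB2 fell by 0.55 (SE 0.13, adjusted p = 0.00417), a call lost without nifedipine 24 h replicate 1 (adjusted p = 0.153) and with only the arrays compared (adjusted p = 0.174). PSMD3, a lid subunit, measured 9.63, 9.52 and 9.06 under nifedipine at 24 h, against 9.25, 9.74 and 10.08 in DMSO, and the groups overlapped. PSMD3 fell by 0.32 (SE 0.10, adjusted p = 0.0397), and the call was lost without the replicate block (adjusted p = 0.507), after either scaling and in 6 single-array omissions, among them each nifedipine array. The 2 calls among 26 genes stand beside 8.18 percent of all genes called at 24 h, and the 0 at 48 h beside 5.79 percent. Without the low-spread arrays, where 13.9 percent of all genes were called, 2 proteasome genes were called at 48 h, PSMD14 with a rise of 0.34 (SE 0.09, adjusted p = 0.00529) and PSMA3 with a fall of 0.27 (SE 0.08, adjusted p = 0.0203). PSMD14 measured 11.24, 11.25 and 11.11 under nifedipine at 48 h, against 10.63, 10.88 and 10.99 in DMSO, and these groups did not overlap. PSMB2 at 24 h was called lower under both methapyrilene and nifedipine against the same 6 DMSO arrays.

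2-Nitrofluorene, clonidine, tolbutamide and NNK gave 0 called proteasome genes at either time with all arrays. Under 2-nitrofluorene 23 of 26 genes at 24 h and 22 at 48 h had a fitted change above 0, with medians of 0.11 and 0.13 (-0.02 and -0.01 over all genes). The highest was PSMD7, a structural lid subunit, with 0.41 at 24 h (SE 0.34, adjusted p = 1), which was 0.17 without the 4 arrays. There the highest at 24 h was PSMD11 with 0.23. PSMD11 changed by 0.36 at 48 h (SE 0.12, adjusted p = 0.386). All genes were called at 0.324 and 0.369 percent. Without the 4 arrays (1.11 percent of all genes called) PSMD11 rose by 0.36 (SE 0.09, adjusted p = 0.0416) at 48 h, with 8.07, 8.01 and 7.68 under 2-nitrofluorene against a lowest, median and highest DMSO value of 7.00, 7.68 and 7.82.

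NNK, a tobacco-specific nitrosamine, had a median over the set whose sign rested on 1 array. At 24 h 23 of 26 proteasome genes had a fitted change below 0 and the median was -0.17, whereas without the low-spread arrays 20 of 26 had one above 0 and the median was 0.05. Without NNK 24 h replicate 2 alone 18 of 26 were above 0 and the median was 0.06. In limma 0 of 26 were called at each time in both settings, as were 0 percent of all genes. On all arrays 3 proteasome genes at 24 h and 0 at 48 h had an unadjusted p under 0.05. Without the 4 arrays 2 and 1 did. How many of all genes reached that unadjusted p is not given, so these counts are not set against the table. Clonidine, an alpha adrenergic agonist, had medians of -0.03 and -0.08 and called 0.00499 and 0.384 percent of all genes. Tolbutamide, a sulfonylurea, had medians of -0.06 and -0.09 and called 2.02 and 2.20 percent of all genes. Without the low-spread arrays (5.82 percent of all genes called) PSMD14 rose under tolbutamide at 48 h by 0.30 (SE 0.09, adjusted p = 0.0311), with 11.35, 10.96 and 11.17 against a lowest, median and highest DMSO value of 10.63, 10.88 and 10.99.

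The catalytic beta genes, the ubiquitin receptor and POMP were not called with all arrays under the 6 compounds other than piperonyl butoxide. Over their 12 comparisons the log2 change ran from -0.25 to 0.19 for PSMB5, from -0.26 to 0.22 for PSMB6 and from -0.29 to 0.19 for PSMB7, with smallest adjusted p of 0.317, 0.433 and 0.28. PSMD4 ran from -0.27 to 0.15 and POMP from -0.18 to 0.26, with smallest adjusted p of 0.721 and 0.632. PSMD14 ran from -0.31 to 0.34 (smallest adjusted p = 0.298), and the 3 calls it gained without the low-spread arrays were those under methapyrilene at 24 h, nifedipine at 48 h and tolbutamide at 48 h. These 12 comparisons share DMSO arrays within each time.

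The solvent itself gave the background for these changes. Between the 2 DMSO exposures limma called 0 of 26 proteasome genes at each time, as it did 0 percent of all genes. With all arrays 0 proteasome genes at 24 h and 2 at 48 h had an unadjusted p under 0.05. Without the low-spread arrays 1 and 4 did. The share of all genes at that unadjusted p is not given. With all arrays the differences ran from -0.30 (PSMD7) to 0.22 (PSMD4) at 24 h and from -0.46 (PSMD13) to 0.20 (PSMD11) at 48 h. Without the low-spread arrays they ran from -0.19 (PSMB2) to 0.26 (PSMD1) at 24 h and were the same at 48 h. The SD of a gene over the 6 DMSO arrays had a median of 0.26 at 24 h and 0.19 at 48 h. It was highest for PSMD7 at 24 h (0.64) and for PSMC3 at 48 h (0.37). At 24 h PSMD7 measured 9.06 on the low-spread DMSO array and 10.40 to 10.75 on the other 5. With all arrays the 24 h changes of PSMA5 (-0.33), PSMB6 (-0.32) and PSMD3 (-0.32) under piperonyl butoxide were little larger in size than the widest solvent difference of that time (-0.30). Without the low-spread arrays they were -0.30, -0.17 and -0.31, beside a widest solvent difference of 0.26. With all arrays the 48 h changes of PSMA5 (-0.37) and PSMD11 (0.30) were smaller in size than the widest solvent difference of 48 h (-0.46). Without the low-spread arrays they were -0.30 and 0.46. These widest differences belong to other genes, PSMD7 (PSMD1 without the low-spread arrays) at 24 h and PSMD13 at 48 h. They are therefore not the solvent background of the genes set beside them. The own solvent difference of PSMD11 at 48 h was 0.20.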

How the data were processed

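The authors deposited log2 expression values made with RMA, per the submitters' processing notes. The sources used here name neither its version nor how probes were grouped into sets. RMA equalises arrays, so its values do not show changes in the total RNA of a cell. Per the labels, RNA was labelled as biotinylated cRNA from single HepG2 cultures. The table held 20056 rows and 54 arrays with 0 missing values and 0 identical arrays.

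The deposited values were fitted without a filter by limma version 3.58.1 under R version 4.3.3, with lmFit and then eBayes and two-sided tests, in 1 fit of 16 groups with the replicate number within a time as a fixed block and 34 residual degrees of freedom. Benjamini-Hochberg adjustment ran over all 20056 rows, and calls were made at an adjusted p under 0.05. The block rests on the labels, which name the DMSO arrays of the same number as matching controls. Deviations of same-numbered arrays had a mean correlation of 0.242 at 24 h and 0.205 at 48 h, and 76 and 73 of 105 pairs were above 0.1. A separate fit took each DMSO exposure as its own group. The number of arrays limits the precision.

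Gene symbols follow the list of Ensembl IDs, and coordinates and promoters are RefSeq's (GRCh38.p14). Other pathway genes and cell type markers are not reported, because 0 of the IDs could be paired with a symbol in the reference table. Members and lists were chosen with earlier results of these data known. Genes named singly are up to 3 called rises and 3 called falls per comparison, the catalytic beta genes, PSMD4, PSMD14 and POMP, and for other genes where a call depended on a setting. The alternatives were no replicate block, only the arrays of a comparison, cyclic loess, centring on the median, the trend and robust options of eBayes, leaving out a share of 0.25 of rows with the lowest means, leaving out replicates, and leaving out arrays with a slope under 0.95. Leaving out single arrays other than those of the group compared was chosen after seeing the data, as was leaving out 1 low-spread array for a median. No scan batch is named in the sources used here.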

Additional observations from a re-analysis of the deposited data

Results flagged for a closer look

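In 6 of the DMSO sets, the lowest of the 6 arrays stood apart from the nearest other by more than the critical share of the range in Dixon's test at the 95 percent level. Chance flags about 1 in 20 groups, and 52 sets of 26 genes at 2 times were tested. At 24 h DMSO exposure 2 replicate 2, a low-spread array, was lowest for PSMC2 (5.88) and PSMD7 (9.06). At 48 h DMSO exposure 2 replicate 2 was lowest for PSMB2 (7.27), PSMD3 (9.17) and PSMD8 (9.73), and its spread was usual. DMSO 48 h exposure 1 replicate 3 was lowest for PSMD12 (8.26), which still lay above every piperonyl butoxide value of that gene. The causes were not tested.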

How the results depend on the processing

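PSMD12, PSMC2 and PSMD2 at both times and PSMC4 at 48 h kept their direction and call under piperonyl butoxide in every alternative run, and PSMD8 at 48 h in all but the fit of only its own arrays (adjusted p = 0.0644). The larger moves in the counts of called proteasome genes are listed here, and their causes were not tested. Smaller moves are left out, such as 9 for piperonyl butoxide at 48 h without the replicate block and 6 at 24 h after centring. Without the replicate block the counts were 0 for methapyrilene at 24 h and 0 at 48 h, 3 for piperonyl butoxide at 24 h and 1 for nifedipine at 24 h. With only the arrays of the comparison they were 0 and 0 for methapyrilene, 4 and 4 for piperonyl butoxide, and 0 and 1 for nifedipine at 24 h and 48 h. Without the 4 low-spread arrays they were 1 for 2-nitrofluorene at 48 h, 2 for methapyrilene at 48 h, 2 for nifedipine at 48 h, 1 for tolbutamide at 48 h, and 1 each for the time differences of methapyrilene and piperonyl butoxide. After centring they were 0 for methapyrilene at 48 h and 1 for nifedipine at 24 h. After cyclic loess they were 0 for methapyrilene at 48 h, 18 for piperonyl butoxide at 48 h (15 rose, 3 fell), 1 for nifedipine at 24 h, 1 at 48 h, 1 for tolbutamide at 48 h and 3 for the time difference of piperonyl butoxide. With trend and robust options nifedipine at 24 h had 1. Cyclic loess reversed PSMB5 (0.30) and PSMB6 (0.46) under piperonyl butoxide at 48 h.

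Leaving out 1 array at a time gave 3 to 10 calls for piperonyl butoxide at 24 h (3 without its replicate 2), 10 to 13 at 48 h, 0 to 2 for its time difference (2 without 48 h replicate 1, 1 without 48 h replicate 2), 0 to 1 for methapyrilene at 24 h and at 48 h, 0 to 2 for nifedipine at 24 h and 0 to 1 at 48 h. The other comparisons stayed at 0. The 2 remaining arrays of a group after an omission are assumed to vary like the other groups.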
